A study of Mus musculus with 6 samples.

Results

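Most of the genes described here build or pattern the hair shaft and its inner root sheath. They are the keratin-associated proteins (Krtap), trichohyalin (Tchh), the peptidylarginine deiminases (Padi), and 7 single genes, namely Crym, Hr, Lap3, Msx1, Msx2, Foxn1 and Dlx3. Some members, such as Padi4 and Padi6, are known from other cells. All were taken by gene name. Of the 21368 mouse genes with a named probe on the array, 64 belonged to the set, read by 77 probes: 51 Krtap genes, 5 Padi genes, and Tchh with the 7 single genes. The mouse annotation lists 69 such genes, and 5 had no matched probe. A gene was tested where a probe for it was called well above background by the scanner software on 3 or more of the 6 arrays, which held for 42 of the 64 genes and for 17848 of all named genes.

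Keratin-associated proteins fill the space between keratin filaments in the hair shaft and cross-link them, the cysteine-rich families through disulphide bonds and the glycine- and tyrosine-rich families through other contacts. Trichohyalin plays a like part in the inner root sheath and the medulla. Deiminases turn arginine into citrulline, which loosens trichohyalin before transglutaminases cross-link it. Most of these genes are known for their activity in differentiating cells of a growing hair, late in the lineage that starts from the stem cells and the hair germ.

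RNA came from epidermal cells of male mice in which EGFP reports the keratin 15 promoter. The skin was depilated in both groups and then received acetone, the vehicle, or 7,12-dimethylbenz[a]anthracene (DMBA), a carcinogen that binds the aryl hydrocarbon receptor. After 3 days, cells with high EGFP, high integrin alpha 6 and no Sca1 at the surface were sorted as hair follicle stem cells and hair germ, with 3 samples from different mice in each group and 1 one-colour array a sample. Strain, age and dose are not given in the sources used here, and the reporter marks cells by activity of the keratin 15 promoter only.

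The markers of the labelled cells were present. All 12 stem cell markers and all 4 hair germ markers were tested. The vehicle mean of Krt15 was 5.81 ± 0.10 (SD, n = 3) and its DMBA mean 6.01 ± 0.42, those of Itga6 2.52 ± 0.14 and 2.33 ± 0.53, as log2 intensity relative to the 75th percentile of the array, the scale of all levels below. Vehicle 1 lay on a slide of its own and was scanned apart from the other 5 arrays. The share of all probes well above background ran from 77.0% to 83.6% on vehicle arrays and from 69.3% to 80.9% on DMBA arrays, and the lowest value of an array from -8.73 to -8.23 and from -8.01 to -7.32.

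Across the 42 members tested, 27 had a positive and 15 a negative log2 fold change of DMBA over vehicle, with a median of 0.10, beside -0.01 over all genes tested. By limma, 0 passed an adjusted p of 0.05, as did 0% of all 17848 genes. At unadjusted p under 0.05, 4 members were on the higher side, where 2.73% of all genes were, and 0 on the lower side, where 2.49% were. Of these 4, 3 remained among the 33 members well above background on all 6 arrays, where 3.18% of all genes were on the higher side; Tchh is not tested there. The same 4 genes, Tchh, Krtap17-1, Krtap8-1 and Foxn1, had 3 DMBA arrays above all 3 vehicle arrays, which held for 4.87% of all genes. Tchh entered the test through its DMBA arrays, so its separation leans on the background filter. Krtap17-1, Krtap8-1 and Foxn1 were well above background on all 6 arrays. Dlx3 was the 1 member with all DMBA arrays below, as in 5.17% of all genes.

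**Figure D1:**
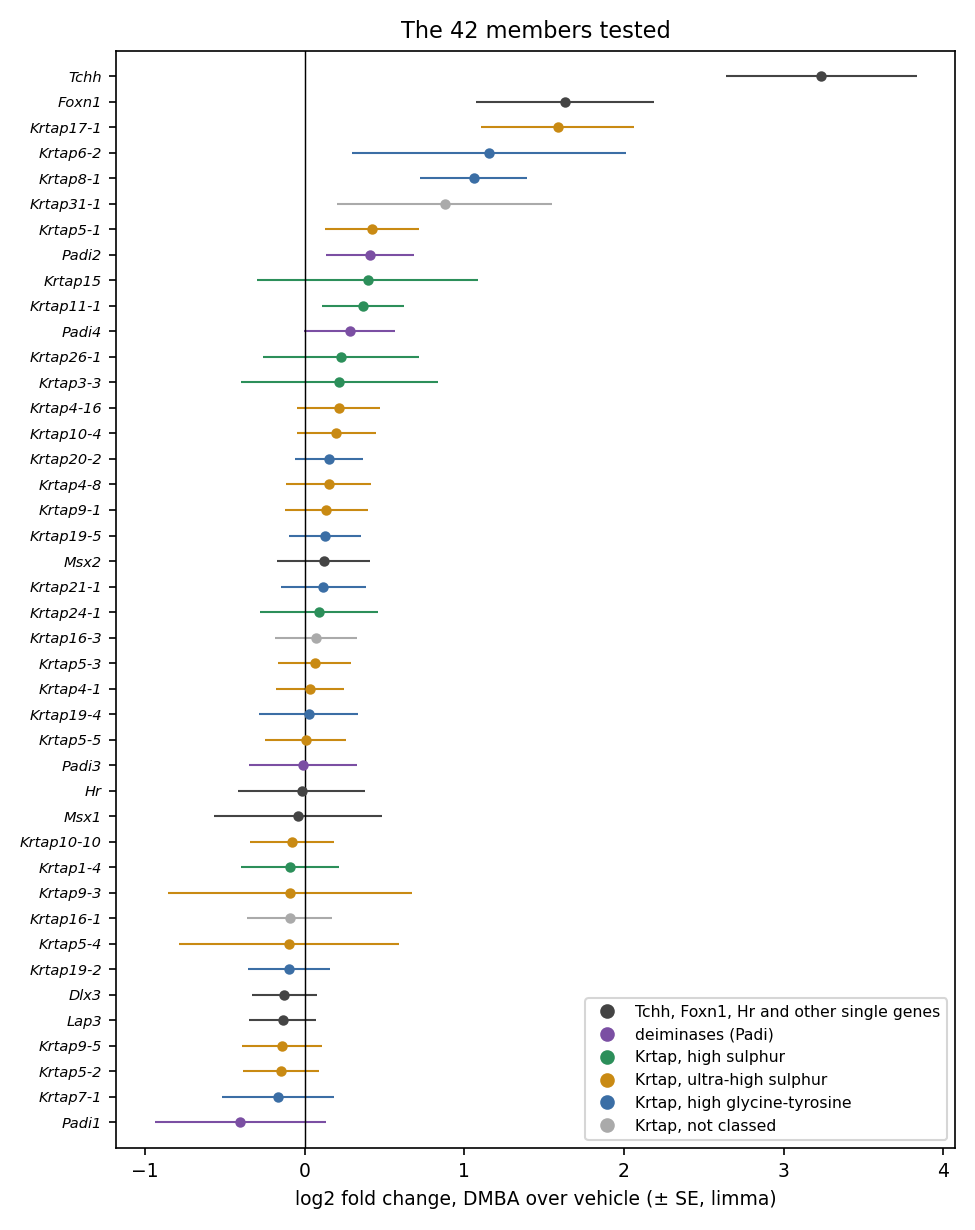
Log2 fold change of DMBA over vehicle for each of the 42 members tested, one gene a row and coloured by class, with bars of ± 1 SE from limma over 3 arrays a group. Tchh at 3.24, with vehicle partly at background, lies farthest to the right, followed by Foxn1, Krtap17-1, Krtap6-2, Krtap8-1 and Krtap31-1, and the other 36 of the 42 lie within 0.5 of 0.

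Tchh encodes trichohyalin. It lay at -7.10, -5.54 and -7.94 on vehicle arrays 1 to 3 and at -3.79, -3.50 and -3.59 on DMBA arrays 1 to 3. The DMBA values were close together, with an SD of 0.15 against 1.22 in vehicle, and the groups did not overlap. The scanner called Tchh above background on all 3 DMBA arrays and in vehicle on array 2 only, so the gene entered the test through its DMBA arrays and its vehicle mean lies partly in the background. With vehicle 1 and 3 counted at the lowest signal that passed the background call on those arrays, the DMBA mean was 6.46-fold higher. Probes that fail the call can lie above that signal, so this fold is not a lower limit. The fitted log2 fold change, which takes the values below background as they stand, was 3.24 (SE 0.60, adjusted p = 0.511 by limma). With another background correction (normexp on the median signal) the log2 fold change was 1.44, and when each array was left out in turn it ran from 2.70 to 3.90.

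Trichohyalin acts together with the deiminase Padi3 and the transglutaminase Tgm3, which modify and cross-link it, and in people mutations in any of these genes give uncombable hair. Padi3 lay at -2.53, -3.44 and -2.94 in vehicle and at -3.26, -3.14 and -2.54 in DMBA, so its groups overlapped fully. The log2 fold change of Padi3 was -0.01 (SE 0.34), with a sign that depended on the arrays used. Tgm3 had a log2 fold change of 0.10 (SE 0.23).

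Krtap17-1 belongs to an ultra-high sulphur family. It lay at -3.16, -3.85 and -3.13 in vehicle and at -1.34, -2.79 and -1.25 in DMBA. All 6 arrays were well above background and DMBA 2 was the lowest of its group, near the vehicle arrays. The log2 fold change was 1.59 (SE 0.48), or 3.00-fold (adjusted p = 0.834). When each array was left out in turn it ran from 1.31, without DMBA 3, to 2.08, without DMBA 2. With normexp on the median signal it was 1.31.

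Krtap8-1 is a small protein rich in glycine and tyrosine. Its vehicle arrays were close together, at -1.14, -1.10 and -1.18, and its DMBA arrays lay at -0.76, 0.12 and 0.38. DMBA 1 was the array nearest to vehicle. The log2 fold change was 1.06 (SE 0.34), or 2.08-fold (adjusted p = 0.855), and 0.67, with an unadjusted p of 0.137 by limma, with the share of probes above background as a covariate.

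Foxn1 is the transcription factor lost in nude mice, whose hair shafts fail to form properly. It lay at -2.04, -1.66 and -2.38 in vehicle and at -1.59, 0.49 and -0.10 in DMBA. DMBA 1 exceeded vehicle 2 by little, while DMBA 2 and 3 stood well above. The log2 fold change was 1.63 (SE 0.56), or 3.09-fold (adjusted p = 0.894). It was 2.22 without DMBA 1 and 0.90 with the covariate of probes above background. The unadjusted p of Foxn1 by limma was 0.0247, and it was 0.0608 with slide as a block and 0.189 with that covariate.

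**Figure D2:**
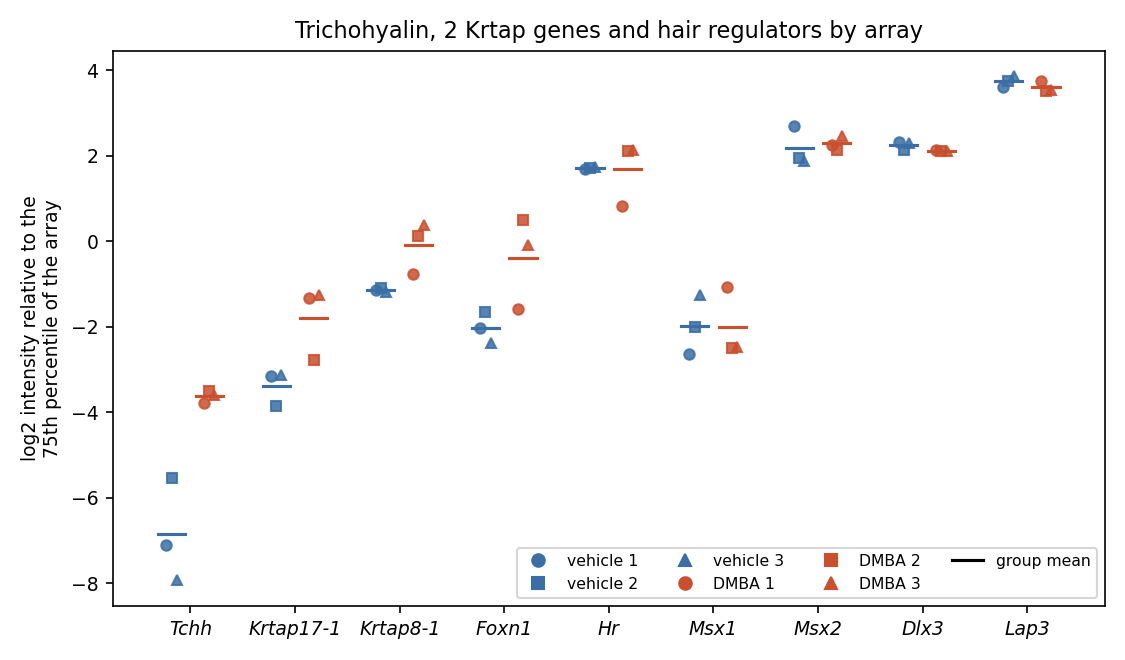
Log2 intensity relative to the 75th percentile of the array (vertical axis) for 9 members, one point an array, vehicle in blue and DMBA in red, with a line at each group mean. The points of Tchh, Krtap17-1, Krtap8-1 and Foxn1 separate by group, whereas those of Hr, Msx1, Msx2 and Lap3 overlap and those of Dlx3 nearly touch.

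The promoters of the 2 Krtap genes and of Tchh are printed to let these genes be set side by side. Each is the 250 bases before the gene's start, 5′ to 3′ on the gene's strand, from RefSeq on GRCm38.p6. Capitals mark matches on either strand to TATAAA, the TATA box, and to CTTTGA or CTTTGT, forms of the core that LEF1 and TCF proteins bind.
Tchh, chr3:93442080-93442329, plus strand: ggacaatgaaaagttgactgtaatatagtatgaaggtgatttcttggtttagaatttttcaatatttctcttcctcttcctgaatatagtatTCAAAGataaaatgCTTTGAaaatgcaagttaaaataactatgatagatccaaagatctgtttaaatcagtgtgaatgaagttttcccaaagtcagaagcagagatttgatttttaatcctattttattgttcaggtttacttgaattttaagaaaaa
Krtap17-1, chr11:99993995-99994244, minus strand: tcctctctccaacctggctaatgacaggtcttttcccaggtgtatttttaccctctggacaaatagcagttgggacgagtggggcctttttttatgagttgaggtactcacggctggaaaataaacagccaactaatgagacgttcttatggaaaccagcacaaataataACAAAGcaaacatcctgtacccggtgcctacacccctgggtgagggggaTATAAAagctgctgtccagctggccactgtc
Krtap8-1, chr16:89487953-89488202, minus strand: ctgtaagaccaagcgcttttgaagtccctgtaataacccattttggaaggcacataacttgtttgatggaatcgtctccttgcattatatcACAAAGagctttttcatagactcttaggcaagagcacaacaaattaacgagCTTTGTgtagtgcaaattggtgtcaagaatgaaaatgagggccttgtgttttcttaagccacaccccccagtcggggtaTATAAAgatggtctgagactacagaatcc

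Both Krtap promoters hold TATAAA, starting 31 bases before the start of Krtap17-1 and 29 bases before that of Krtap8-1, and the window of Tchh holds none. CTTTGA occurs 2 times in the Tchh window and CTTTGT 1 time in that of Krtap17-1 and 2 times in that of Krtap8-1, with no overlap between the matches. Of 46 Krtap genes with a promoter in the table, 37 (80.4%) hold TATAAA in these 250 bases on either strand, beside 12.4% of all 32851 promoters. CTTTGA was found in 26.1% of Krtap and 13.8% of all promoters, and CTTTGT in 30.4% and 16.5%. GACGC, which holds the ACGC core bound by FOXN1, was found in 6.52% of Krtap and 22.6% of all promoters, and GCGTG, the core bound by the aryl hydrocarbon receptor, in 10.9% and 28.2%. Neither lies in the windows of Tchh, Krtap17-1, Krtap8-1 or Foxn1. These are matches of letters and not sites of binding. G and C made up 27.6% of the window of Tchh, 47.6% of Krtap17-1, 41.6% of Krtap8-1 and 63.2% of Foxn1. The shares of promoters were not adjusted for base composition, and its part in them was not tested.

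Most other Krtap genes differed little between the groups. Of the 31 tested, 27 (87.1%) had a log2 fold change within 0.5 of 0, as did 73.3% of all genes tested, and the range was -0.17 to 1.59. Their spread between arrays of a group was small: the median residual SD was 0.28, beside 0.45 over all genes. Split into 3 equal parts by signal, the 14 Krtap genes of the middle part had 0.27 and all genes there 0.50, and the 14 of the dimmest part 0.68 and 0.65.

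The sign of the Krtap differences moved with 1 array. Of the 31 tested genes, 22 (71.0%) had a positive difference with all arrays, beside 48.7% of all genes, and 10 (32.3%) without DMBA 1, beside 41.3% of all genes. DMBA 1 was the highest of the 6 arrays for 18 of them (58.1%), beside 29.45% of all genes. The median over the 31 genes was -1.21 on DMBA 1 and between -1.78 and -1.62 on the other 5 arrays. For all members tested the median log2 fold change was 0.10 with all arrays and -0.06 without DMBA 1, while that over all genes went from -0.01 to -0.08. DMBA 1 also had the lowest 75th percentile intensity, 1355 against 1758 to 2274, and its part in this pattern was not tested.

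Among families rich in glycine and tyrosine, 8 of 14 genes were tested and 6 of them had positive values. After Krtap8-1 the next by p was Krtap6-2, at -3.92, -5.71 and -7.55 in vehicle and -4.57, -4.65 and -4.49 in DMBA. Its vehicle arrays spanned the DMBA values and 2 of them were well above background. The log2 fold change was 1.15 (SE 0.86), 2.06 without vehicle 1 and 0.24 without vehicle 3. Krtap20-2 lay at 3.36, 3.29 and 3.28 in vehicle and 3.61, 3.29 and 3.49 in DMBA (log2 fold change 0.15, SE 0.21), and Krtap19-5 at -0.37, -0.20 and -0.24 and at 0.12, -0.27 and -0.28 (0.13, SE 0.23). For both, DMBA 1 was the highest array and the groups overlapped. Krtap7-1, Krtap19-2, Krtap19-4 and Krtap21-1 lay between -0.17 and 0.12.

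The ultra-high sulphur families had 14 of 19 genes tested, 9 with positive values and a median log2 fold change of 0.05. Apart from Krtap17-1 all lay between -0.15 and 0.42. Krtap5-1 was at the upper end, with 0.03, -0.46 and -0.86 in vehicle and -0.18, 0.02 and 0.12 in DMBA, groups that overlapped (log2 fold change 0.42, SE 0.29). Krtap4-16 lay at -1.36, -1.74 and -1.62 in vehicle and -1.03, -1.37 and -1.68 in DMBA (log2 fold change 0.21, SE 0.26), and Krtap10-4 at -2.34, -2.71 and -2.74 and at -2.13, -2.49 and -2.57 (0.20, SE 0.25). DMBA 1 was again the highest array of both, and the groups overlapped. Krtap4-8 lay at 2.67, 3.08 and 3.03 in vehicle and 3.43, 2.79 and 3.02 in DMBA (log2 fold change 0.15, SE 0.27), and Krtap5-2 at -0.09, -0.22 and 0.30 and at -0.22, -0.02 and -0.21 (-0.15, SE 0.24). Their signs turned when 1 array was left out, DMBA 1 for Krtap4-8 and vehicle 3 for Krtap5-2.

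Of the high sulphur families 6 of 14 genes were tested, with a median of 0.22. Krtap11-1 lay at -1.35, -1.55 and -1.62 in vehicle and at -0.80, -1.49 and -1.14 in DMBA. Its groups overlapped (log2 fold change 0.37, SE 0.26), and its other probe gave -0.13. Krtap15, Krtap26-1, Krtap3-3, Krtap24-1 and Krtap1-4 lay between -0.09 and 0.40. Of 3 tested genes in families not classed here, Krtap31-1 had the largest value, at -2.48, -4.00 and -4.53 in vehicle and -1.92, -3.72 and -2.74 in DMBA. These groups overlapped (log2 fold change 0.88, SE 0.67), and the value was 2.00 with the covariate of probes above background. With each array left out it ran from 0.44, without DMBA 1, to 1.47, without vehicle 1. Krtap16-1 and Krtap16-3 had values of -0.09 and 0.07.

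Detection of the Krtap genes was not higher after DMBA. On vehicle arrays 1 to 3, 35, 35 and 29 of the 51 genes were well above background, and on DMBA arrays 1 to 3, 33, 25 and 28. Over all named genes the shares were 86.1%, 85.4% and 80.9% in vehicle and 84.0%, 74.8% and 78.1% in DMBA, so the Krtap counts moved with those of the whole array. A total of 24 Krtap genes were detected on all 6 arrays and 9 on none, namely Krtap1-3, Krtap1-5, Krtap3-1, Krtap3-2, Krtap4-6, Krtap6-1, Krtap13-1, Krtap14 and Krtap19-1. Of these 9, 6 are of high sulphur families. Krtap4-2, Krtap12-1 and Krtap13 were detected on 1 vehicle and 1 DMBA array each and were not tested.

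**Figure D3:**
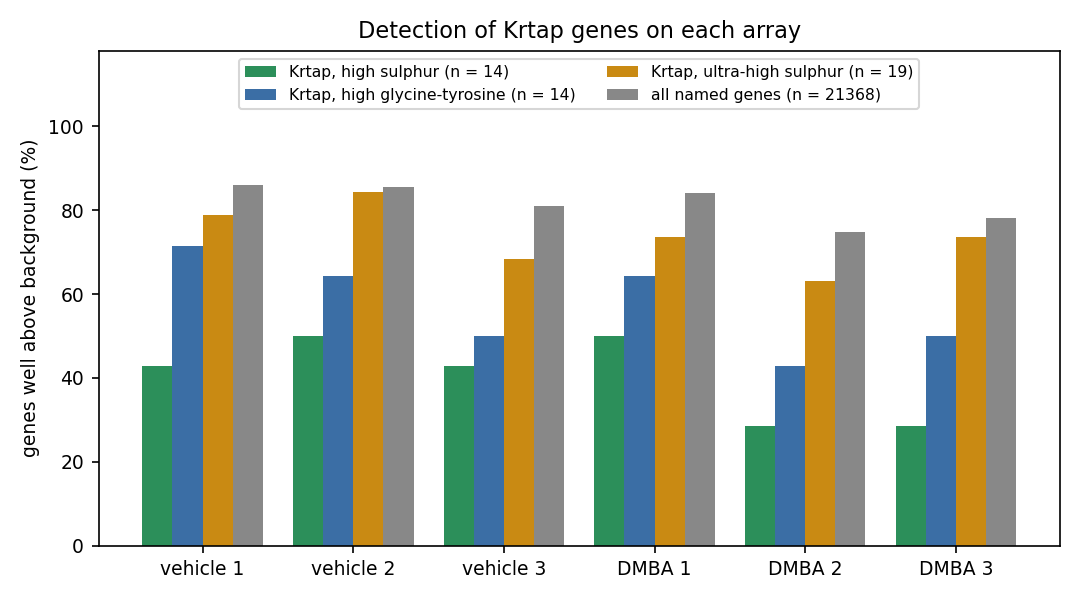
Percent of genes well above background (vertical axis, from 0) on each of the 6 arrays, for 3 classes of Krtap gene and for all 21368 named genes. Fewer of the high sulphur genes (28.6% to 50%) than of the ultra-high sulphur genes (63.2% to 84.2%) were detected on each array, and all 4 series were lower on DMBA 2 than on any vehicle array.

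The Krtap genes lie in clusters, and by chromosome 11 of 21 were tested on chromosome 11, 13 of 22 on chromosome 16, 5 of 5 on chromosome 7 and 2 of 3 on chromosome 10. The genes within a cluster resemble each other in sequence, and whether a probe reads a single member was not tested. Probes of the same gene disagreed in places. For Krtap19-5 one probe was well above background on every array and the other on none, and the same held for Krtap4-16 and Padi4. Krtap20-2 had 3 probes detected on all arrays, with log2 fold changes of 0.15, 0.12 and 0.26, and another detected on 2 arrays. The 4 probes of Krtap5-5 were detected on all arrays and gave log2 fold changes between 0.0073 and 0.030. The other probe of Krtap5-2 was detected on 1 vehicle array and on 0 DMBA arrays.

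**Figure D4:**
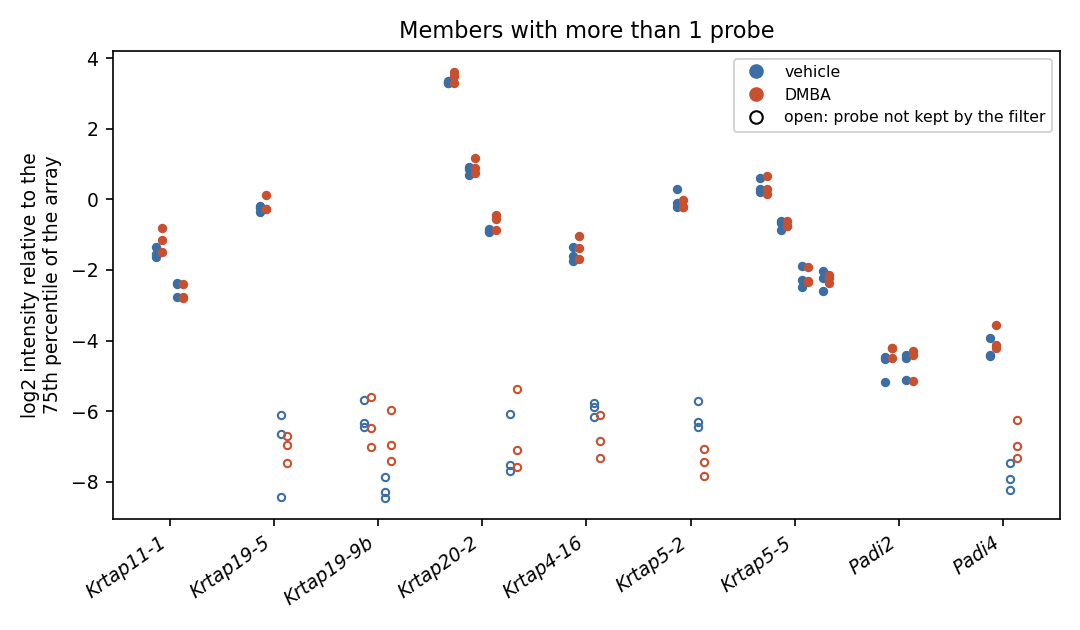
Log2 intensity relative to the 75th percentile of the array for the 9 members with more than 1 probe, each column of points one probe, vehicle in blue and DMBA in red, open where the probe was not kept. Krtap19-5, Krtap20-2, Krtap4-16, Krtap5-2 and Padi4 have a kept probe beside an open one near background, and both probes of Krtap19-9b are open.

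Among the deiminases, Padi1 and Padi3 are those of epidermis and hair, Padi2 is widely expressed, Padi4 is known from granulocytes and Padi6 from oocytes. Padi1 lay at -4.61, -5.81 and -4.12 in vehicle and at -4.51, -5.49 and -5.75 in DMBA, overlapping groups with a log2 fold change of -0.40 (SE 0.54), and passed the scanner's background call on all vehicle arrays but on 1 DMBA array. Padi2 lay at -4.46, -4.52 and -5.16 and at -4.21, -4.22 and -4.51, with a log2 fold change of 0.41 (SE 0.28) and of 0.06 on its other probe. Padi4 lay at -4.43, -4.40 and -3.93 and at -3.57, -4.22 and -4.13, with a log2 fold change of 0.28 (SE 0.28). The groups of both overlapped. Padi6 passed the background call on a single DMBA array and was not tested. None of the 4 tested deiminases reached an unadjusted p under 0.05. Beside Padi4, 5 of 9 neutrophil markers were tested, 2 with positive and 3 with negative values and 0 at unadjusted p under 0.05. Their summed linear level ran from 0.625 to 1.065 times the 75th percentile in vehicle and from 0.450 to 0.536 in DMBA. Cxcr2 made up 15.7% to 61.3% of it. Without Cxcr2 the ranges overlapped, at 0.247 to 0.897 in vehicle and 0.216 to 0.383 in DMBA. Ltf was well above background on no array.

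The regulators other than Foxn1 did not stand apart. Hr, the corepressor lost in hairless mice, lay at 1.70, 1.72 and 1.73 in vehicle and at 0.83, 2.12 and 2.15 in DMBA. Its vehicle arrays were nearly equal while DMBA 1 lay below and DMBA 2 and 3 above them, so the log2 fold change was -0.02 (SE 0.40), and 0.42 without DMBA 1. Msx2, a homeobox factor of the hair matrix, lay at 2.69, 1.95 and 1.89 and at 2.26, 2.15 and 2.47 (log2 fold change 0.12, SE 0.29), and its relative Msx1 at -2.65, -2.002 and -1.27 and at -1.08, -2.50 and -2.47 (-0.04, SE 0.53). Dlx3, a homeobox factor needed for hair formation, lay at 2.31, 2.13 and 2.30 in vehicle and at 2.13, 2.12 and 2.12 in DMBA. The lowest vehicle array and the highest DMBA array round to the same value, and the log2 fold change was -0.13 (SE 0.20).

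Lap3, a leucine aminopeptidase, lay at 3.62, 3.74 and 3.87 in vehicle and at 3.75, 3.52 and 3.54 in DMBA (log2 fold change -0.14, SE 0.21), with overlapping groups. Crym, which encodes mu-crystallin, a protein that binds thyroid hormone, was well above background on vehicle 1 alone, at -3.60, and lay between -8.67 and -7.27 on the other 5 arrays. It was not tested. In all, 8 members passed the background call on 1 vehicle array and no other, and 2 on 1 DMBA array and no other.

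The partners of these genes were read from lists of other hair and cornification genes. Of the hair shaft keratins, which the Krtap proteins embed, 13 of 16 were tested, 7 with positive and 6 with negative values, a median log2 fold change of 0.09 and 0 at unadjusted p under 0.05. The 4 of smallest p were Krt86 (-0.39), Krt40 (0.43), Krt39 (0.35) and Krt36 (0.39). The summed linear level of the 13 was 16.98 on DMBA 1 and 7.88 to 9.81 on the other 5 arrays, with 75.3% to 84.1% of it from Krt81. Without Krt81 it was 2.90 on DMBA 1 and 1.45 to 1.95 on the others. The inner root sheath and companion layer keratins, 8 of 9 tested, had a median of 0.13, with Krt27 at 1.25 (SE 0.53), Krt74 at 0.93, Krt71 at -0.85 and Krt72 at 0.11, and 0 at unadjusted p under 0.05.

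Of the filaggrin-type proteins, relatives of trichohyalin, and other substrates of deiminases, 6 of 9 were tested. All 6 had positive values, beside 48.7% of all genes, with a median of 0.63. Their summed linear level ran from 14.5 to 60.4 in vehicle and from 32.55 to 59.9 in DMBA. Crnn, which encodes cornulin, lay apart between the groups, with a log2 fold change of 0.89 (SE 0.26, adjusted p = 0.806), and was the 1 member at unadjusted p under 0.05. Hrnr, Krt10 and Krt1 had values of 0.77 (SE 0.69), 0.71 (SE 0.665) and 0.55 (SE 0.55), with overlapping groups. Krt10 and Krt1 are also among the suprabasal epidermal markers below, so these lists are not separate readings. Of the 10 enzymes that cross-link or process these proteins, all tested, Klk5, a protease of the outer epidermis, had a log2 fold change of -0.96 (SE 0.35), the 1 on the lower side at unadjusted p under 0.05, and 0 lay on the higher side. All DMBA arrays of Klk5 lay below all its vehicle arrays. Casp14, Klk7 and Tgm1 had values of -0.74, -0.43 and 1.06. Of the 16 other regulators of the hair matrix 7 were positive and 9 negative (median -0.06), with 0 at unadjusted p under 0.05. Lef1, the Wnt effector of the matrix, had a value of 1.51 (SE 0.75), Dlx2 -0.61, Notch1 0.57 and Trps1 -0.39.

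Markers of other cells that the sort could hold were read beside these results. The 6 suprabasal epidermal markers, all tested, had a median log2 fold change of 0.33 and summed linear levels of 53.8 to 130.2 in vehicle and 91.0 to 123.3 in DMBA, with 0 at unadjusted p under 0.05. The 4 sebaceous markers summed to 10.4 to 20.1 and 8.45 to 14.8, and the 8 leukocyte markers to 91.0 to 114.4 and 87.5 to 141.6, with 0 at that level in either list. Itgam made up 93.8% to 97.9% of the leukocyte sum, and without it the sum was 1.93 to 7.12 in vehicle and 2.76 to 3.25 in DMBA. Scd1 made up 68.9% to 89.1% of the sebaceous sum. The 8 melanocyte markers summed to 2.95 to 4.46 and 4.14 to 6.75, with 3 positive and 5 negative log2 fold changes and a median of -0.06. Mlana had 2.72 and Tyrp1 3.35, both at unadjusted p under 0.05 with overlapping groups, Kit -1.24 and Sox10 -0.43. Tyrp1 passed the background call in vehicle on array 2 only. Its DMBA mean was 6.42-fold higher with the other vehicle arrays counted at the lowest signal that passed, which is not a lower limit. Of the fibroblast and dermal papilla markers 7 of 9 were tested, 5 with positive and 2 with negative values and a median of 0.43. They summed to 1.95 to 5.10 in vehicle and 4.06 to 5.02 in DMBA. Dcn (1.51) was the 1 at unadjusted p under 0.05, and Col1a1 had 1.29, Col3a1 -0.52 and Corin 0.43. Pdgfra was well above background on no array. Among the stem cell markers Lgr5 (-0.64) and Foxc1 (-1.19) were on the lower side at unadjusted p under 0.05, and Sox9 (-0.50) and Krt5 (0.22) followed. For 3 of these 12 markers, Lgr5, Foxc1 and Sox9, all DMBA arrays lay below all vehicle arrays, as in 5.17% of all genes. The hair germ markers Runx1, Shh, Gli1 and Cdh3 had values of 0.44, 1.40, -0.32 and -0.30. The part of any of these in the values of Tchh, Krtap17-1, Krtap8-1 and Foxn1 was not tested, and in sorted bulk RNA a change in the share of a cell type and a change in RNA per cell cannot be told apart.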

How the data were processed

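Per the labels, cDNA was labelled with Cy3. The scanner software was Agilent Feature Extraction 10.7.1.1, per the submitters' processing notes. The deposited scanner files hold background-corrected spot intensity and the software's flags, and the deposited matrix of the series holds intensity scaled by the authors, used as an alternative. Values are log2 intensity minus the log2 75th percentile of each array. The 3671 control spots were left out, flagged outliers set to missing and spots of a probe averaged. Probes well above background on at least 3 of 6 arrays were kept. Symbols came from RefSeq accessions (annotation of GRCm38.p6, names only), and 28331 of 55681 probes had one. A gene was read by its brightest kept probe. DMBA was compared with vehicle in limma 3.58.1 (R 4.3.3; two-sided, no covariates, Benjamini-Hochberg over 17848 genes), and the code was tested on simulated data. No spot was saturated (0), and the number of arrays limits precision.

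Members, lists and named genes were chosen with earlier results of these data known. All Padi and single genes were named, with the 12 tested Krtap genes of smallest p in full and up to 4 genes of each of 13 lists. The promoters shown, the motifs, the folds against a background floor and the single-array and single-gene checks were chosen after values were seen. Krtap classes follow family numbers, not protein sequence, which was not used here. For lack of a mean signal column, normexp ran on the median signal, offset 50, chosen after the data were seen.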

Additional observations from a re-analysis of the deposited data

Results flagged for a closer look

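Krtap22-2 and Padi6 were outside the tests, since they were well above background on 1 array each, in both cases a DMBA array, and on 0 vehicle arrays. Krtap22-2 lay at -4.26 on DMBA 1, at -6.89 and -5.19 on DMBA 2 and 3, and between -7.83 and -6.32 in vehicle. Its DMBA mean was 2.22-fold that of vehicle arrays raised to a background floor. Padi6, known from oocytes, lay at -2.40 on DMBA 3 and at -6.21 and -7.09 on DMBA 1 and 2. In vehicle it lay between -8.45 and -7.30, and the ratio by the same measure was 2.73. Each rests on the array named first: without it the ratio was 1.47 for Krtap22-2 and 1.02 for Padi6. The reverse pattern, a single vehicle array and no DMBA array, was seen for 8 members, among them Crym and Krtap2-4, which lay at -3.14 on vehicle 3. For this ratio each vehicle array counted at its lowest signal that passed the background call, or at the probe itself where that was higher. DMBA values were taken as they stand, also where they failed the call, so the ratio is not a lower limit. The ratio carries no error, and no fit was made.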

How the results depend on the processing

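The planned normexp correction on the mean signal was not run, for lack of that column, and ran on the median signal instead. The count of members past an adjusted p of 0.05 stayed at 0 under the 15 alternatives. Since vehicle 1 lay alone on its slide, slide as a block and leaving out vehicle 1 gave the same values and are not separate checks. The 4 members on the higher side at unadjusted p under 0.05 became 10 of 64 with no filter on dim probes. In that fit 5.89% of all genes were on the higher side at that level, beside 2.73% in the main fit. Of these 10 members, 6 were well above background on no array. The count was 1 to 4 when each array was left out, where 2.61% to 2.99% of all genes were on the higher side. It was 2 without vehicle 3, 2 without DMBA 2 and 1, Tchh, without DMBA 3. Krtap17-1 and Krtap8-1 passed that level in 3 of these 6 fits and Foxn1 in 2. Tchh, with vehicle partly at background, passed in 6 and is not tested where all 6 arrays must be above background, which left 3. The count stayed at 4 but the genes changed with slide as a block (Krtap6-2 in, Foxn1 out) and with the covariate of probes above background (Krtap11-1 and Krtap31-1 in, Krtap8-1 and Foxn1 out). Of all genes, 2.76% were on the higher side with slide as a block and 4.24% with that covariate. The count of members on the lower side stayed at 0. Same-numbered samples did not deviate together (correlations of 0.018, -0.020 and 0.058, with 1 of 3 numbers the best match of its own). No label says that the numbers pair samples, and so small a check cannot show that they do not. With the replicate block the counts stayed at 0, 4 and 0 and the median at 0.10. Of 23 named members 15 kept their sign throughout. In the others it turned: Hr was 0.0035 with quantile normalization, Padi1, Msx1 and Padi3 were 0.0029, 0.016 and 0.038 with normexp, Padi3 was 0.21 with slide as a block and Msx1 0.25 with the covariate of probes above background. With each array left out, Padi3 ran from -0.25 to 0.21, Msx1 from -0.51 to 0.31, Hr from -0.24 to 0.42, Msx2 from -0.027 to 0.37, Krtap5-2 from -0.26 to 0.0041, Krtap19-5 from -0.0034 to 0.20 and Krtap4-8 from -0.022 to 0.30. The cause was not tested. Values of genes near background, such as Tchh in vehicle, are limited by signal.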
